A study of Bos taurus with 88 samples.

Results

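ENSBTAG00000021161, ENSBTAG00000009012, ENSBTAG00000017251 and ENSBTAG00000006343 are the 4 genes, of 24616 listed for cattle, that were selected on the size of their fall in whole blood, from birth to 48 h of age. Their course over the first week of life is described here. Genes are given by Ensembl identifier, since no table used here pairs these identifiers with gene names, and the function of the products is therefore not described. The value used for the selection was the log2 fold change of their counts, that is the difference between 48 h and 0 h, so that difference is given as a description with no test. Every comparison that draws on the 0 h or 48 h samples is treated in the same way. Tests were made only between samples at 72 h and 168 h, which the selection did not use, though they came from the same calves. The alternative fits of all 88 samples compared the same ages. Their filter, scaling and variance estimates also drew on the 0 h and 48 h samples.

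Whole blood from 22 calves was sequenced at 0, 48, 72 and 168 h after birth, and every calf was present at every age (88 libraries). The 8 H calves were Holstein dairy calves fed colostrum artificially, with a first feed of 5% of body weight and further feeds after it. Between 72 h and 168 h they moved from single pens to a group pen, and from colostrum to milk replacer. In their change from 72 h to 168 h, age and that move cannot be told apart. The 7 CL calves and 7 LF calves were beef calves with free access to the dam, born to Charolais × Limousin and Limousin × Friesian cows respectively, and sired by Aberdeen Angus or Charolais bulls. Breed, farm, feeding and management differ together between H and beef calves, so their parts in a difference cannot be told apart.

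Around birth the bovine fetus is exposed to a surge of cortisol, the hormone that sets off calving in this species. Blood of the newborn is rich in neutrophils, short-lived white cells of the innate response, and the balance of white cells changes over the days that follow. A calf is born with almost no circulating antibody and takes it up from colostrum through the gut. In a whole blood sample, fewer cells of a type and less RNA per cell cannot be told apart.

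Between 10023822 and 39304404 reads per library were counted on genes (median 22595526.5), and levels are given as CPM (counts scaled to a fixed total per library) with TMM factors over all 88 libraries. On that scale 3 counts, taken as the smallest level that can be shown, correspond to 0.0793 to 0.257 CPM in libraries of calves other than H6 and to at most 0.472 CPM in H6. They were not divided by gene length, so they are compared between samples and not between genes. Calf H6 stood apart from the other calves. Its 10 most abundant genes took 39%, 48.8%, 51.1% and 10.4% of counts at 0, 48, 72 and 168 h, whereas in the libraries of other calves that share was 4.69% to 28.5% (median 7.17%). TMM factors of H6 at these ages were 0.5824, 0.4573, 0.4009 and 0.9624, against 0.7767 to 1.204 in other calves. A low factor raises the CPM of a library. The main comparisons of H calves at 72 h and 168 h are given with and without it.

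In the comparison that chose them, the 4 genes were the 4 largest falls in both beef groups. In CL calves, log2 fold changes at 48 h versus 0 h (± SE) were -6.67 ± 0.62 for ENSBTAG00000021161, -5.89 ± 0.69 for ENSBTAG00000009012, -5.48 ± 0.29 for ENSBTAG00000017251 and -5.24 ± 0.34 for ENSBTAG00000006343. In LF calves the values in the same order were -5.58 ± 0.69, -4.83 ± 0.99, -4.84 ± 0.47 and -4.77 ± 0.56. In H calves they were -3.56 ± 0.67, -3.51 ± 0.61, -3.68 ± 0.49 and -2.80 ± 0.46, and ENSBTAG00000006343 ranked only 9 there, behind 5 genes that are not among the 4. The fitted falls of these genes were larger in beef calves on the log2 scale, which describes the selecting values and was not tested. Log2 fold changes of all genes tested also spread more in beef calves, with an SD of 0.62 in CL and 0.67 in LF against 0.5 in H calves. All 4 genes met the call used throughout (an adjusted p below 0.05 with a change of 1.5 times or more) in each breed, where 2.97% of genes tested in H, 7.86% in CL and 4.52% in LF calves were called lower. Nothing is read from those calls, since they rest on the samples and the difference that made the selection. Just outside it, ENSBTAG00000016991 ranked 4 in H calves with -3.37, ENSBTAG00000023026 ranked 5 in CL calves with -5.06, and ENSBTAG00000039037 ranked 5 in LF calves with -4.57.

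**Figure D1:**
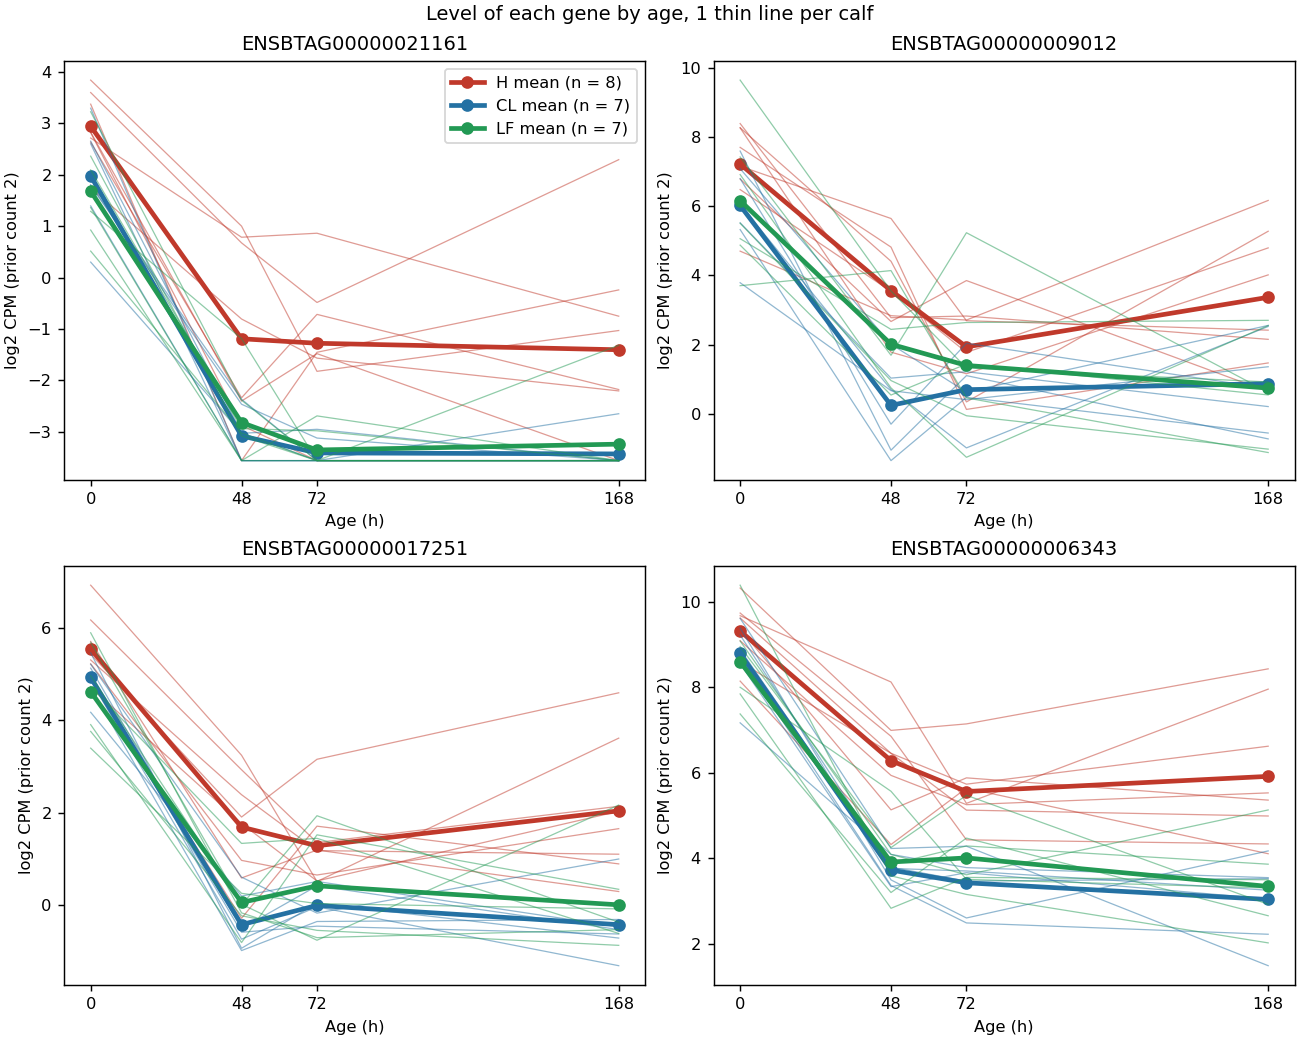
Level of each gene (log2 CPM with a prior count of 2, vertical axis) against age in hours (horizontal axis). Thin lines are single calves and thick lines with points are group means (8 H, 7 CL and 7 LF calves). All groups are highest at 0 h, the H mean lies above both beef means at 168 h in every panel, and thin H lines spread widely at that age.

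ENSBTAG00000021161 was the least counted of the 4 genes, with 0 counts in 31 of the 88 libraries. At birth its level ran from 3.27 to 14.2 CPM in H calves (median 7.00), from 1.15 to 9.72 CPM in CL calves (median 3.41) and from 1.34 to 9.26 CPM in LF calves (median 2.48). Every calf had the gene at 0 h, and the ranges of the 3 groups overlapped. At 48 h the range was 0 to 1.92 CPM in H calves (median 0.300), 0 to 0.109 CPM in CL calves (median 0.0377) and 0 to 0.354 CPM in LF calves (median 0.0380). At 72 h it was 0 to 1.73 CPM in H (median 0.277), 0 to 0.0445 CPM in CL and 0 to 0.0701 CPM in LF calves, with both beef medians at 0. The gene was therefore at or near the limit of detection in beef calves from 48 h onwards, while most H calves still had counts. At 168 h the H range was 0 to 4.82 CPM (median 0.271), and 6 of 7 CL and 6 of 7 LF calves had no count. Summed over the calves of a group, counts at 0, 48, 72 and 168 h were 849, 8, 2 and 2 in CL calves. The LF sums were 599, 13, 3 and 8. The H sum was 1269 at 0 h, 74 at 72 h and 158 at 168 h, with 0 to 46 counts per H calf at 48 h. Of the 158 counts in H calves at 168 h, 117 came from calf H6. The gene did not return to its birth level in any of the 22 calves, and the nearest was H6, at 40.01% of its own 0 h level at 168 h.

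ENSBTAG00000009012 was the gene for which single calves went against the general course. At birth its level was 25.9 to 333.6 CPM in H calves (median 174.6), 13.7 to 192.3 CPM in CL calves (median 65.8) and 12.9 to 795.6 CPM in LF calves (median 45.3). At 48 h it was 3.35 to 49.8 CPM in H (median 9.28), 0.308 to 3.95 CPM in CL (median 1.51) and 1.37 to 17.5 CPM in LF calves (median 3.15). All calves but LF2 were below their own birth level at 48 h. LF2 had the lowest birth level of the LF calves and stood at 136% of it at 48 h. At 72 h the range was 1.01 to 14.3 CPM in H (median 4.85), 0.422 to 4.03 CPM in CL (median 1.46) and 0.335 to 37.4 CPM in LF calves (median 2.42), the highest value coming from LF4. At 168 h it was 1.48 to 71.5 CPM in H (median 10.7), 0.522 to 5.79 CPM in CL (median 1.58) and 0.377 to 6.42 CPM in LF calves (median 1.46). H calves thus spanned a wide range at 168 h that overlapped both beef groups. The highest calf there was H6, whose 168 h level was 276% of its birth level, and H6 had the lowest birth level of the H calves. The other 21 calves were below their birth level at 168 h.

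ENSBTAG00000017251 ran a more uniform course. At birth its level was 26.1 to 121.6 CPM in H calves (median 41.3), 17.9 to 43.97 CPM in CL calves (median 31) and 10.4 to 59.4 CPM in LF calves (median 26.4). At 48 h it was 0.731 to 9.37 CPM in H (median 3.48), 0.418 to 1.43 CPM in CL (median 0.577) and 0.482 to 2.43 CPM in LF calves (median 0.913). In each of the 3 breeds every 0 h level lay above every later level. At 72 h the range was 1.33 to 8.81 CPM in H (median 2.18), 0.640 to 1.33 CPM in CL (median 0.885) and 0.502 to 3.73 CPM in LF calves (median 0.933). At 168 h it was 1.14 to 24.1 CPM in H (median 3.52), 0.316 to 1.91 CPM in CL (median 0.604) and 0.459 to 4.39 CPM in LF calves (median 0.685). The highest calf was H6 at both of these ages in H calves, and no calf regained its birth level.

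ENSBTAG00000006343 had counts in every library, from 78 to 31356. At birth its level was 283.2 to 1282 CPM in H calves (median 722.0), 143.8 to 782.7 CPM in CL calves (median 473.6) and 166.1 to 1343 CPM in LF calves (median 375.6). At 48 h it was 19.9 to 279.2 CPM in H (median 87.7), 10.0 to 18.6 CPM in CL (median 13.5) and 7.02 to 47.3 CPM in LF calves (median 14.4). H and CL calves did not overlap at 48 h, nor at 72 h. At 72 h the range was 21.5 to 141.4 CPM in H (median 44.4), 5.51 to 19.4 CPM in CL (median 12.6) and 8.81 to 44.4 CPM in LF calves (median 12.1). At 168 h it was 17.1 to 345.6 CPM in H (median 43.5), 2.71 to 17.9 CPM in CL (median 9.44) and 3.97 to 34.9 CPM in LF calves (median 9.79). The lowest H calf and the highest CL calf were then close enough for the ranges to meet.

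Ordered by median, the 12 groups of breed and age fell into the same blocks for all 4 genes. The highest was H at birth, then CL at birth and LF at birth. The 3 later H groups came next and the 6 later beef groups last. Each group overlapped its neighbour in that order for each gene, so no 2 neighbouring groups were separate in their ranges.

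By 168 h, levels had not returned to those at birth in 21 of 22 calves for ENSBTAG00000009012 and in 22 of 22 for the other 3 genes. In H calves, the median level at 168 h as a percent of the same calf's level at 0 h was 3.44% for ENSBTAG00000021161, 4.48% for ENSBTAG00000009012, 7.12% for ENSBTAG00000017251 and 7.35% for ENSBTAG00000006343. In CL calves the medians in the same order were 0%, 2.35%, 1.80% and 1.99%. In LF calves they were 0%, 2.92%, 3.41% and 3.82%. Within a breed, the percent differed widely from calf to calf. For ENSBTAG00000006343 it was 2.35% to 30.4% in H calves, 0.347% to 8.06% in CL calves and 0.295% to 6.44% in LF calves. The 3 highest H calves for that gene were H3 at 30.4%, H6 at 27.0% and H8 at 25.4%. For ENSBTAG00000017251 the range was 2.17% to 55.8% in H, 1.09% to 5.15% in CL and 1.01% to 8.53% in LF calves. Without H6, the H medians were 2.84%, 3.70%, 6.04% and 6.25%. The percents of H6 itself depend on its TMM factors, 0.5824 at 0 h and 0.9624 at 168 h, and would be larger without them.

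**Figure D2:**
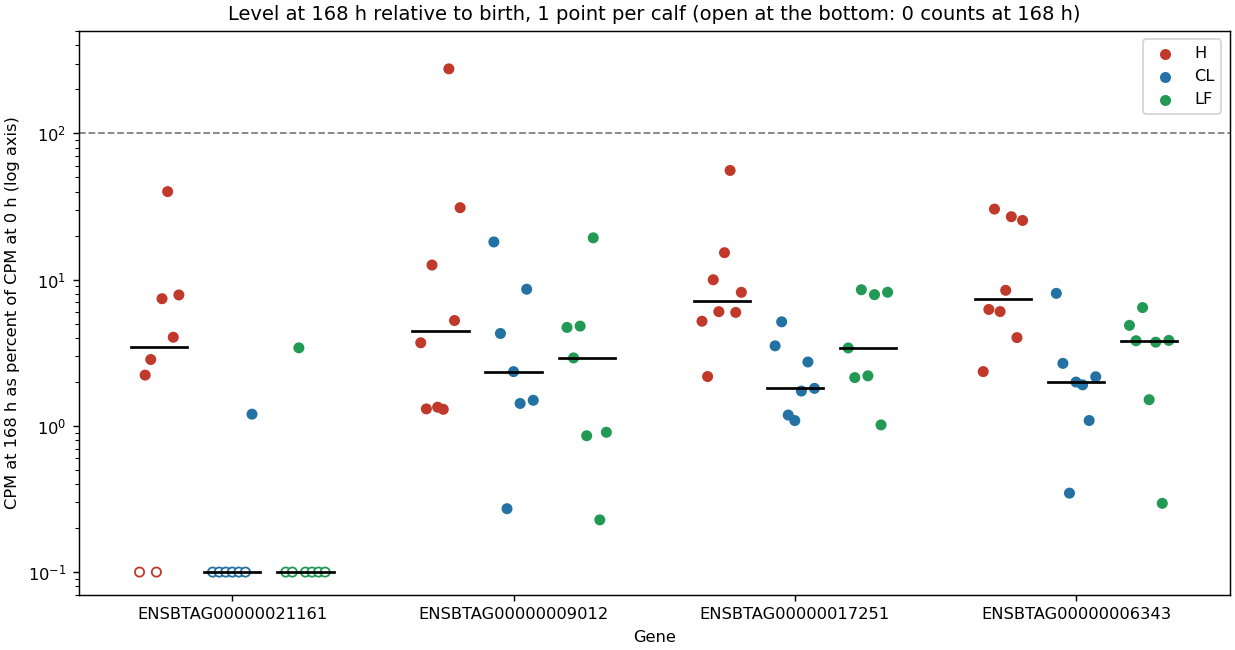
CPM at 168 h as a percent of CPM at 0 h in the same calf (vertical log axis) for each gene (horizontal axis). Each point is 1 calf, black bars are group medians, the dashed line is 100%, and open points at the bottom mark calves with 0 counts at 168 h. A single point, H6 for ENSBTAG00000009012 at 276%, lies above the line.

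Most of the difference from birth was present at 48 h. For ENSBTAG00000006343, log2 fold changes at 168 h versus 48 h were 0.03 ± 0.66 in H, -0.54 ± 0.32 in CL and -0.52 ± 0.48 in LF calves. For ENSBTAG00000017251 they were 0.64 ± 0.64, 0.04 ± 0.39 and 0.24 ± 0.51. For both genes these differences were small beside those from birth. For ENSBTAG00000009012 the values were 0.29 ± 0.74, 0.74 ± 0.64 and -1.28 ± 0.72. Between 48 h and 72 h the level of this gene was lower in 6 of 8 H calves (-1.69 ± 0.60), and in H calves its lowest age was 72 h in 5 and 168 h in 3. The lowest age of ENSBTAG00000006343 was 168 h in 12 of the 22 calves, 72 h in 6 and 48 h in 4. The age of the lowest level thus varied between calves, and these values share samples with the selection and were not tested.

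The test of recovery compared 168 h with 72 h within each breed, by the quasi-likelihood test of edgeR. P-values were adjusted by the Benjamini-Hochberg method over all genes tested. The libraries were not used by the selection but came from the same calves. From 48 h to 72 h, same-calf deviations from group means correlated at 0.423 in H, 0.606 in CL and 0.554 in LF calves on average. The test is therefore not fully independent of the selection. ENSBTAG00000021161 did not pass the filter on low counts at these ages, so 3 of the 4 genes were tested. None was called. The count was 0 of 3 in H calves, where 9.18% of all genes were called, 0 of 3 in CL calves, where 0.0157% were, and 0 of 3 in LF calves, where 14% were. In H calves the log2 fold changes were 1.97 ± 0.75 for ENSBTAG00000009012 (adjusted p = 0.083), 1.22 ± 0.61 for ENSBTAG00000017251 (adjusted p = 0.19) and 0.92 ± 0.60 for ENSBTAG00000006343 (adjusted p = 0.32). The level of the first was higher at 168 h in 5 of 8 H calves, of the second in 5 of 8 and of the third in 4 of 8. At an unadjusted p under 0.05, which 30.7% of all genes reached in H, 23.8% in CL and 41.5% in LF calves, edgeR gave 1 of the 3 genes in H calves, ENSBTAG00000009012 (unadjusted p = 0.017 against an adjusted p = 0.083), and 0 in either beef group. DESeq2 called 1 in H calves, again ENSBTAG00000009012 (adjusted p = 0.041), and 0 in CL and LF calves, against 9.98%, 4.94% and 14.8% of all genes. The edgeR call for this gene changed when calf H4 was left out, with a log2 fold change of 2.57 (adjusted p = 0.042). Without H6 the values of the 3 genes were 1.41, 0.97 and 0.74 (adjusted p = 0.23, 0.17 and 0.39). H calves thus gave positive differences for all 3 genes. None met the call by edgeR with all 8 calves, after adjustment over all genes tested.

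In CL calves the log2 fold changes from 72 h to 168 h were 0.48 ± 0.58 for ENSBTAG00000009012, -0.31 ± 0.35 for ENSBTAG00000017251 and -0.30 ± 0.37 for ENSBTAG00000006343 (adjusted p = 0.62, 0.60 and 0.64). In LF calves they were -1.55 ± 0.94, -0.42 ± 0.61 and -0.56 ± 0.46 (adjusted p = 0.22, 0.62 and 0.37). The LF value of ENSBTAG00000009012 rested on LF4, which had 37.4 CPM at 72 h, and was 0.22 without that calf. With the calf as a block, ENSBTAG00000006343 in H calves moved from 0.92 to 0.29, ENSBTAG00000017251 there from 1.22 to 0.73 and ENSBTAG00000009012 in LF calves from -1.55 to -0.73. In that fit 0 of 3 genes were called in each breed, although 731 of 12770 genes were then called in CL calves against 2 without the block.

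Whether the change from 72 h to 168 h differed between breeds was tested as an interaction. The count was 0 of 3 for H versus CL, 0 of 3 for H versus LF and 0 of 3 for CL versus LF, and the percent of all genes called was 0 in each of these comparisons by edgeR. At an unadjusted p under 0.05 there were 894, 990 and 204 genes in these comparisons, and DESeq2 called 46, 0 and 0 genes. For ENSBTAG00000009012 the H minus LF difference in change was 3.54 ± 1.25 (unadjusted p = 0.0082, adjusted p = 0.63), and it was the only value of the 9 with an unadjusted p under 0.05. Without H6 it was 2.97 (adjusted p = 0.63), and the H minus CL value of ENSBTAG00000017251 moved from 1.52 to 1.26 (unadjusted p = 0.040, adjusted p = 0.58). A different course in H and beef calves after 72 h was therefore not shown for these genes.

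**Figure D3:**
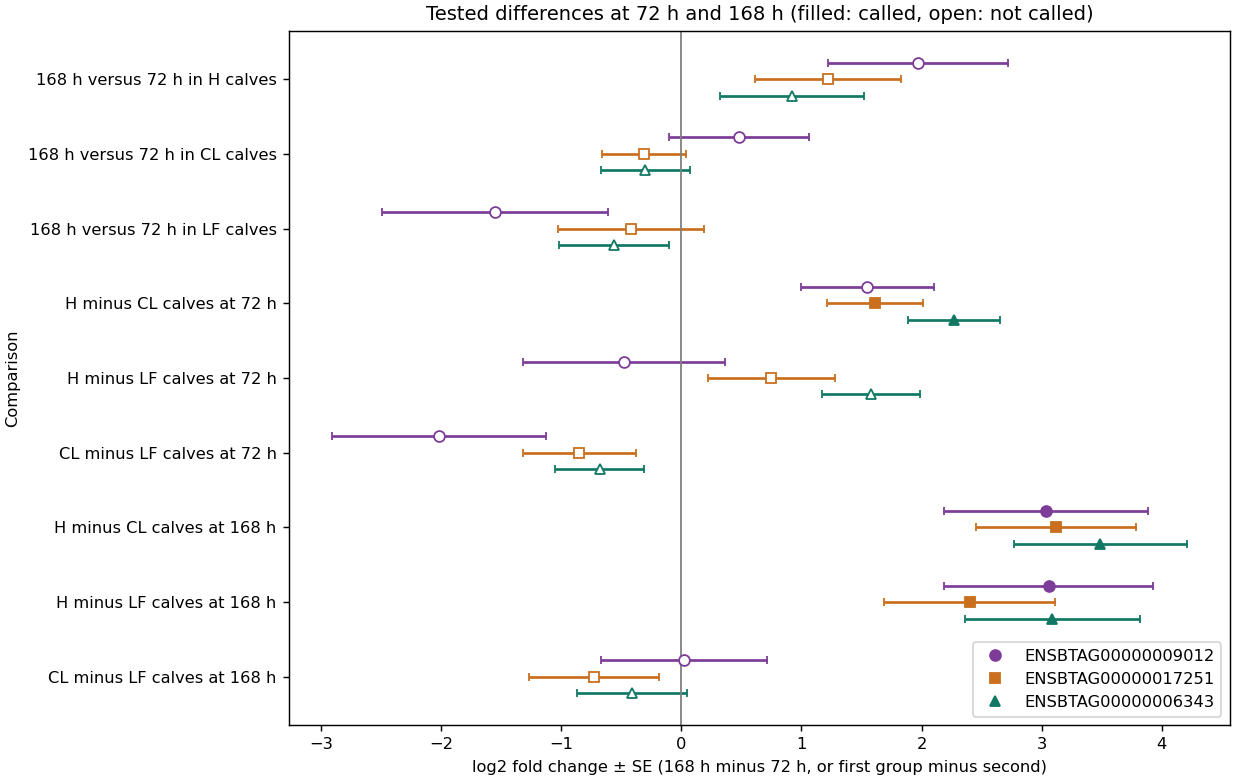
Log2 fold changes (horizontal axis) for the comparisons made on 72 h and 168 h samples (vertical axis), with bars of 1 SE, for the 3 genes that passed the filter on low counts. Filled symbols were called and open symbols were not. All 6 values of H against the beef groups at 168 h are filled and lie between 2.40 and 3.49.

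Levels at 168 h were higher in H than in beef calves. Against CL calves, 3 of 3 genes tested were called, where 6.67% of all genes were. Log2 fold changes (H minus CL) were 3.04 ± 0.85 for ENSBTAG00000009012 (adjusted p = 0.029), 3.12 ± 0.67 for ENSBTAG00000017251 (adjusted p = 0.011) and 3.49 ± 0.72 for ENSBTAG00000006343 (adjusted p = 0.010). Group ranges overlapped for all 3. ENSBTAG00000017251 and ENSBTAG00000006343 were called whichever of the 15 calves was left out. ENSBTAG00000009012 was not called when CL3, CL4, CL5, CL7, H3 or H6 was left out, with log2 fold changes of 2.42 to 3.38 and adjusted p of 0.018 to 0.059 over all 15 omissions. Without the H6 library the 3 values were 2.42, 2.42 and 2.92. Without the 3 libraries of this comparison whose label ends in R, a mark not explained in the sources used here, the values were 2.79, 3.07 and 3.65, 0 of 3 were called (adjusted p = 0.15, 0.089 and 0.077) and 0.116% of all genes were. Without the filter, ENSBTAG00000009012 was not called.

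Against LF calves at 168 h, 3 of 3 genes were called, where 6.83% of all genes were. Log2 fold changes (H minus LF) were 3.06 ± 0.87 for ENSBTAG00000009012 (adjusted p = 0.030), 2.40 ± 0.71 for ENSBTAG00000017251 (adjusted p = 0.037) and 3.09 ± 0.73 for ENSBTAG00000006343 (adjusted p = 0.014). The last was called whichever of the 15 calves was left out, with log2 fold changes of 2.50 to 3.59. ENSBTAG00000009012 was not called without H3, H6, LF1, LF2, LF4, LF6 or LF7 (2.43 to 3.49, adjusted p = 0.018 to 0.064 over the 15 omissions). ENSBTAG00000017251 was not called without any of those calves or LF5 (1.69 to 3.18, adjusted p = 0.0097 to 0.076). Without H6 the 3 values were 2.43, 1.69 and 2.50. Without the filter on low counts, and without the libraries with R labels, ENSBTAG00000006343 alone was called (adjusted p = 0.033 and 0.037), with values of 2.40 to 3.26 for the 3 genes in these fits, in which 3.96% and 4.16% of all genes were called. CL and LF calves gave 0 of 3 calls at 168 h, where the percent of all genes called was 0 by edgeR (243 genes at an unadjusted p under 0.05) and DESeq2 called 0 genes. The values were 0.02 ± 0.69, -0.73 ± 0.54 and -0.41 ± 0.46 (adjusted p = 1 for each).

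At 72 h, H calves were higher than CL calves for 2 of 3 genes tested, where 7.27% of all genes were called. The log2 fold change was 2.27 ± 0.38 for ENSBTAG00000006343 (adjusted p = 0.0056) and 1.61 ± 0.40 for ENSBTAG00000017251 (adjusted p = 0.022). For ENSBTAG00000009012 it was 1.55 ± 0.55 (adjusted p = 0.080), which became a call with DESeq2 (adjusted p = 0.026) and with edgeR when H5 was left out (adjusted p = 0.034). ENSBTAG00000017251 was not called without CL6 (1.54, adjusted p = 0.055). Without H6, the values were 1.89 for ENSBTAG00000006343 and 1.14 for ENSBTAG00000017251, and both were called. Against LF calves the count was 0 of 3, where 0.396% of all genes were called. The largest value was 1.58 ± 0.41 for ENSBTAG00000006343 (unadjusted p = 0.0015, adjusted p = 0.089), the only one with an unadjusted p under 0.05. It was called by DESeq2, and by edgeR when LF4 was left out (1.96, adjusted p = 0.034), and was 1.20 without H6 (adjusted p = 0.13). For ENSBTAG00000009012, the H minus LF value was -0.48 ± 0.84 and turned to 1.20 without LF4. CL and LF calves gave 0 of 3 calls at 72 h, where the percent called was 0 by edgeR (563 genes at an unadjusted p under 0.05) and DESeq2 called 1 gene. ENSBTAG00000009012 was the only gene of the 3 with an unadjusted p under 0.05 by edgeR there (-2.02 ± 0.89, adjusted p = 0.83).

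ENSBTAG00000021161 entered these comparisons only where no filter was applied, DESeq2 included, and in the fits of all 88 samples. In those joint fits it passed the filter through its 0 h libraries, which the selection used, so its values there are not given. Without the filter, edgeR gave a higher level in H than in CL calves at 72 h (log2 fold change 4.85, adjusted p = 0.0086) and at 168 h (5.82, adjusted p = 0.029). Against LF calves the values were 4.41 at 72 h (adjusted p = 0.049) and 4.10 at 168 h (adjusted p = 0.084). These fitted values depend on the small number added to counts, since each beef group held at most 8 reads of the gene at these ages. In H calves at 168 h, 117 of 158 reads came from H6 and 2 calves had none. No value without H6 is given for this gene.

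Values of H minus beef calves were also positive at birth and at 48 h for every gene fitted. At birth some were small beside their SE, and the ranges of H and beef calves overlapped for every gene. At birth, H minus CL values were 0.82 ± 0.38, 1.12 ± 0.55, 0.73 ± 0.30 and 0.49 ± 0.33 in the order given above, and H minus LF values were 1.11 ± 0.40, 0.12 ± 0.75, 0.81 ± 0.41 and 0.51 ± 0.41. At 48 h, H minus CL values for the 3 genes that passed the filter were 3.47 ± 0.68 for ENSBTAG00000009012, 2.50 ± 0.50 for ENSBTAG00000017251 and 2.90 ± 0.45 for ENSBTAG00000006343. H minus LF values were 1.48 ± 0.67, 1.98 ± 0.50 and 2.51 ± 0.53. These samples made the selection and the values are a description.

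The spread between calves was set beside that of the 12017 genes with a mean of at least 1 CPM, and was wider than most in most groups. At birth the SD of log2 CPM in H calves was 0.66 for ENSBTAG00000021161, 1.24 for ENSBTAG00000009012, 0.72 for ENSBTAG00000017251 and 0.69 for ENSBTAG00000006343. The median SD of those 12017 genes was 0.31. At 168 h the same SDs were 1.93, 1.97, 1.44 and 1.61 against 0.23. At that age between 98.7% and 99.5% of the 12017 genes varied less between H calves than each of these 4. Genes with a lower mean were left out of that share, while ENSBTAG00000021161 had a median of 0.27 CPM in H calves at 168 h. Without H6 the SDs of the 4 genes at 168 h were 1.32, 1.75, 1.08 and 1.35. H6 and H3 were the highest H calves at 168 h for 3 genes, with 345.6 and 248.6 CPM of ENSBTAG00000006343, 24.1 and 12.1 CPM of ENSBTAG00000017251 and 71.5 and 38.6 CPM of ENSBTAG00000009012. For ENSBTAG00000021161, H6 was at 4.82 CPM while H3 was at 0.405 CPM, below H5 (0.762 CPM) and H8 (0.509 CPM). H4 was lowest of the H calves at 168 h for ENSBTAG00000006343 and ENSBTAG00000009012, and had no count of ENSBTAG00000021161. In CL calves at 168 h the SDs were 0.34, 1.34, 0.70 and 0.90, and in LF calves 0.85, 1.51, 1.03 and 0.99. The small SD of the first gene in CL calves goes with its near absence there.

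**Figure D4:**
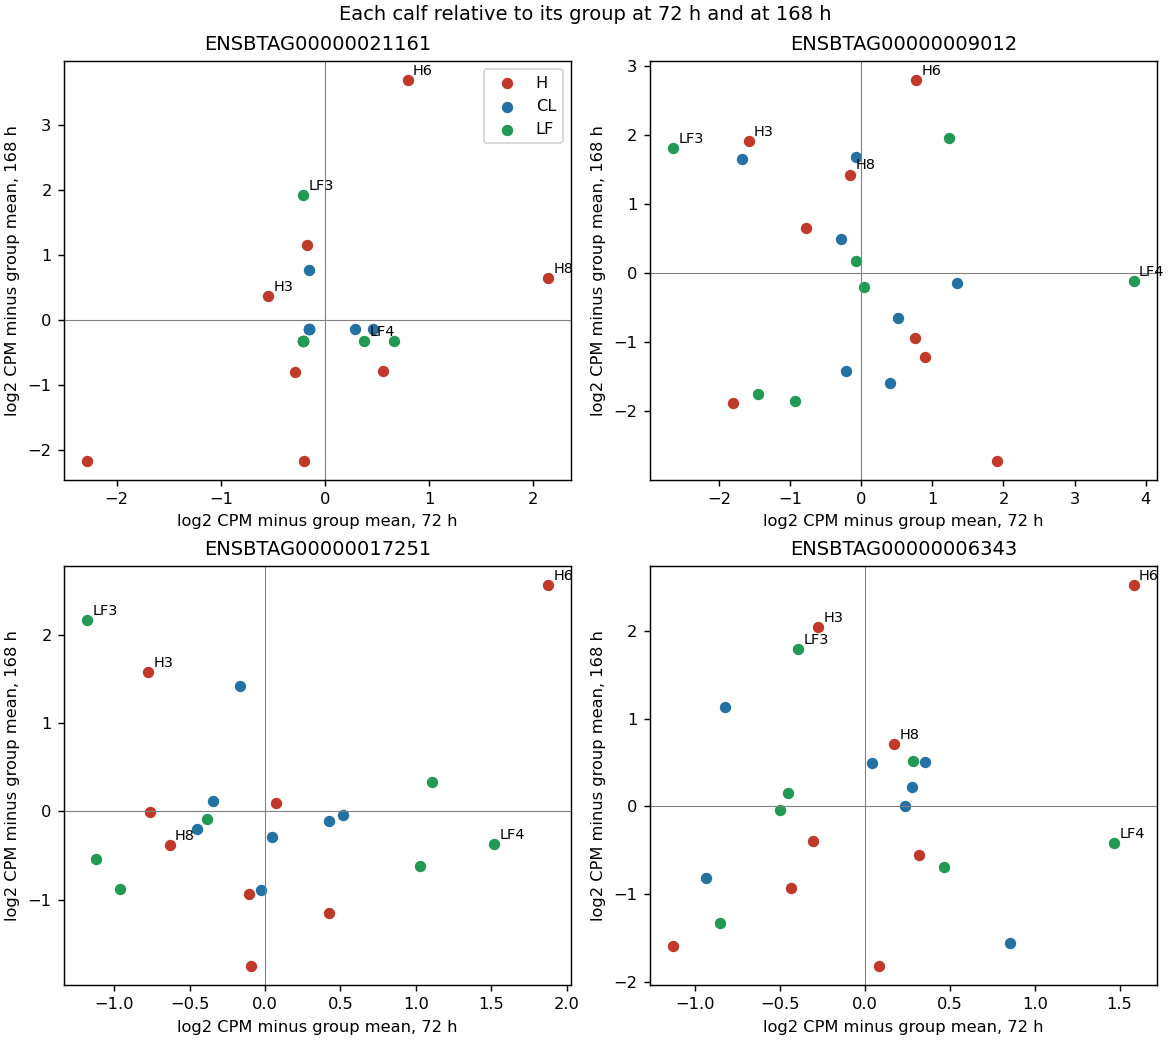
Log2 CPM of each calf minus its group mean at 72 h (horizontal axis) and at 168 h (vertical axis), 1 point per calf and 1 panel per gene, with 5 calves labelled. H6 lies in the upper right of all panels, H3 and LF3 are above 0 only at 168 h, and LF4 is far to the right for 3 genes without being high at 168 h.

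Calves that were high at 72 h were not shown to be high at 168 h. After removal of the group means, the correlation over 22 calves was r = 0.43 for ENSBTAG00000021161 (permutation p = 0.21, adjusted over the 4 genes 0.66) and rho = 0.32 (permutation p = 0.26, adjusted 0.80). For ENSBTAG00000009012, r = -0.16 (permutation p = 0.50, adjusted 0.66) and rho = -0.07 (permutation p = 0.78, adjusted 0.89). For ENSBTAG00000017251, r = 0.08 (permutation p = 0.76, adjusted 0.76) and rho = -0.03 (permutation p = 0.89, adjusted 0.89). None of these passed the threshold. For ENSBTAG00000006343, r = 0.22 (permutation p = 0.37, adjusted 0.66) and rho = 0.19 (permutation p = 0.40, adjusted 0.80). Leaving out the 2 calves farthest from the median at 72 h gave r = 0.26, -0.08, -0.27 and 0.02. Within H calves r was 0.53, -0.29, 0.41 and 0.63, within CL calves -0.25, -0.52, -0.16 and -0.35, and within LF calves -0.25, 0.08, -0.26 and -0.09. With H6 included, all genes but ENSBTAG00000009012 were positive within H calves and negative within both beef groups. H6 was above its group mean at both ages for each gene. No r within H calves is given without H6, so no difference between H and beef calves is read from these signs. Without H6 the pooled r of the 4 genes was 0.38, -0.24, -0.31 and -0.05.

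Over the 88 libraries, which include those that made the selection, levels of the 4 genes were correlated to different degrees. Among 12016 genes compared by Pearson correlation of log2 CPM, ENSBTAG00000017251 and ENSBTAG00000006343 were each the nearest to the other (r = 0.95). ENSBTAG00000006343 was nearest to ENSBTAG00000021161 (r = 0.93), and ENSBTAG00000017251 was nearest to ENSBTAG00000009012 (r = 0.90). ENSBTAG00000009012 and ENSBTAG00000021161 were less alike (r = 0.81), ranking 66 and 42 among the genes nearest to each other. Outside the 4, the nearest to both ENSBTAG00000017251 and ENSBTAG00000006343 was ENSBTAG00000033748 (r = 0.93 and 0.94). After removal of the 12 group means, r was 0.73 between ENSBTAG00000017251 and ENSBTAG00000006343, 0.63 between ENSBTAG00000021161 and ENSBTAG00000006343, 0.61 between ENSBTAG00000017251 and ENSBTAG00000009012, and 0.23 between ENSBTAG00000021161 and ENSBTAG00000009012. ENSBTAG00000009012 and ENSBTAG00000021161 were therefore the pair least alike within groups. Over the 44 libraries at 72 h and 168 h alone these 4 values were 0.72, 0.66, 0.69 and 0.35. The points of these correlations share calves, libraries and depth, and no p is given.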

How the data were processed

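The authors trimmed reads with cutadapt, mapped them to cattle assembly UMD3.1 using STAR and deposited raw read counts per Ensembl gene. Reads fell on both strands about equally (50.57% and 49.78%), so the unstranded count was used. The authors' DESeq2 results were not used. The 4 genes, and the lists, were chosen with earlier results of these data known. Named genes were these 4, those ranked next to them in the falls, and those with the most similar levels. Lists by gene symbol, cell type markers and promoter motifs could not be applied, because no table used here pairs identifiers with symbols.

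Groups came from the sample labels, and calves were matched across ages by tag number. Same-calf deviations correlated at 0.232 to 0.606 on average between successive ages, and those of different calves at -0.101 to -0.038. No library was found to repeat another (0 identical pairs of 280). Each breed or age was compared with edgeR 4.0.16 in R 4.3.3 (TMM, default filter, robust quasi-likelihood test) on the groups compared, without a calf term. A call needed an adjusted p under 0.05 and a fold of at least 1.5. Log2 CPM used a prior count of 2. Permutation tests (two-sided, 100000 resamples within breeds) used numpy 2.4.6, with ranks from scipy 1.17.1. The fits were tested on simulated counts. Alternatives were DESeq2 1.42.0, RLE, no filter, a joint fit of all 88 libraries (alone or with the labels' L number as a covariate), removal of 9 libraries with R labels, the calf as a block, no fold threshold and omission of each calf. Omission of H6 from interactions, percents and correlations, CPM without TMM factors and Spearman's rho were added after the data had been seen. STAR leaves out reads with several positions, so genes with near-identical copies may be undercounted.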

Additional observations from a re-analysis of the deposited data

Results flagged for a closer look

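In 5 of 48 groups of gene, breed and age, the highest or lowest calf lay farther from the others than Dixon's 95% critical value allows, a gap that chance gives in about 1 of 20 groups. For 2 of the 5, every other calf of the group had 0 counts, so any count would have been singled out, and 3 are left. These 2 were ENSBTAG00000021161, which was highest in CL7 (0.0746 CPM) and LF3 (0.316 CPM) at 168 h, with 2 and 8 reads. LF3 was also highest for ENSBTAG00000017251 at 168 h (4.39 CPM), and H6 for that gene at 72 h (8.81 CPM). The H6 value at 72 h came from 56 counts and a TMM factor of 0.4009, while H4 had 58 counts and 3.17 CPM. The gap was not measured without that factor. CL1 was lowest for ENSBTAG00000006343 at 0 h (144 CPM). No interaction between breed and age was called for these genes.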

How the results depend on the processing

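Between 72 h and 168 h in H calves, 0 of 3 genes tested were called as reported (9.18% of all genes). The count became 1 with DESeq2 (9.98%), 2 with all 88 samples in a single fit (12%), and 0 to 1 with a calf left out (5.32% to 10.4%). Between H and CL calves at 72 h, the count of 2 became 4 with DESeq2 (9.25%) and 1 to 3 with a calf left out (3.32% to 9.97%). Between H and LF calves at 72 h, 0 became 1 without the filter (0.214%), 1 with DESeq2 (3.32%), 2 in the single fit (5.63%), 1 with the L number as a covariate (1.58%) and 0 to 1 with a calf left out (0.063% to 1.23%). At 168 h, the count of 3 against CL calves became 0 without libraries with R labels (0.116%) and was 2 to 3 with a calf left out (4.02% to 10.1%). Against LF calves, 3 became 1 without the filter (3.96%), 1 without libraries with R labels (4.16%) and 1 to 3 with a calf left out (4.52% to 8.16%). The causes were not tested. ENSBTAG00000021161 is counted where the filter did not apply and in the fits of all 88 samples. Counts there are out of up to 4 genes. In the fits of all 88 samples it passed the filter through its 0 h libraries, which the selection used. When calf was added as a block, 0 of 3 genes were called at 168 h versus 72 h in each breed. Of all genes, 8.99% in H, 5.72% in CL and 13.7% in LF calves were then called. The count was also 0 of 3 in every interaction, where 0% of all genes were called. The pairing thus changed no call for these 3 genes, although values moved. With the L number as a covariate, 168 h versus 72 h in CL calves turned to 0.03 for ENSBTAG00000017251 and 0.70 for ENSBTAG00000006343, and the H versus CL interaction to -0.15 for ENSBTAG00000009012 and -0.51 for ENSBTAG00000006343. With a calf left out, signs also turned in CL calves for ENSBTAG00000009012 (-0.04 to 0.89) and ENSBTAG00000006343 (-0.65 to 0.02). In LF calves the ranges were -2.12 to 0.22 for ENSBTAG00000009012 and -1.37 to 0 for ENSBTAG00000017251, and for ENSBTAG00000009012 between H and LF calves at 72 h -0.89 to 1.20. Between CL and LF calves at 168 h they were -0.32 to 0.45, -1.15 to 0.06 and -0.65 to 0.10 for ENSBTAG00000009012, ENSBTAG00000017251 and ENSBTAG00000006343. None of these was called. The correlation of 72 h with 168 h turned to -0.03 for ENSBTAG00000017251 as Spearman's rho, and without H6 to -0.31 for that gene and -0.05 for ENSBTAG00000006343. Median percents of birth levels moved by less than the spread between calves without TMM factors and without H6. Depth limits ENSBTAG00000021161 most.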

Other observations

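After removal of the 12 group means over 88 libraries, the nearest gene to ENSBTAG00000017251 was ENSBTAG00000006221 (r = 0.80), to ENSBTAG00000006343 it was ENSBTAG00000020783 (r = 0.76), to ENSBTAG00000009012 it was ENSBTAG00000031950 (r = 0.72) and to ENSBTAG00000021161 it was ENSBTAG00000020260 (r = 0.67). ENSBTAG00000008951 was the second nearest to both ENSBTAG00000009012 (r = 0.71) and ENSBTAG00000017251 (r = 0.78). These are correlations over libraries that share calves and depth, given with no p.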
